A study of Mus musculus with 18 samples.

Results

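Genes of fatty acid oxidation and ketogenesis were followed across 6 groups of mouse RNA-seq libraries. The set, called the members here, was a fixed list of 36 gene symbols chosen by function, and all 36 stood among the 24602 genes of the deposited count table. Each group held 3 libraries. The Hom groups came from 129S1/SvlmJ mice carrying the knock-in allele Nup93 R388W/R388W, the Het groups from R388W/+ mice and the WT groups from Nup93 wild type mice. From each genotype, nuclear RNA (Nuclear_Hom, Nuclear_Het, Nuclear_WT) and total RNA (Total_Hom, Total_Het, Total_WT) had been sequenced. Nup93 encodes a scaffold protein of the nuclear pore, and its own level lay between 15.9 CPM (Nuclear_WT) and 22.6 CPM (Nuclear_Het), which does not check a point mutation. No age, sex, treatment or animal number was given in the labels, which name the tissue only as mouse tissue, whereas the series text speaks of podocytes, the epithelial cells that form the kidney's filter. Nothing states whether replicate libraries stem from different animals, so the p-values below measure the spread between libraries, which may be technical.

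Libraries held 17.4 to 23.5 M (mega) counts, after 1 column had been corrected. For Total_WT replicate 1, the deposited column summed to 200140709 counts and in every gene was at least as large as the 9 nuclear columns together, so their sum was subtracted from it. Levels are given as CPM, the count of a gene relative to a library size adjusted with TMM factors (trimmed mean of M values). Podocyte markers were present at low levels, and the slit diaphragm gene Nphs1 lay between 6.28 CPM (Total_Het) and 18.2 CPM (Nuclear_Het). Lrp2, the endocytic receptor of the proximal tubule, lay between 2407 CPM (Total_Hom) and 3863 CPM (Total_WT). Xist, transcribed from the inactive X chromosome, averaged 504 CPM in Nuclear_Hom, 516 CPM in Nuclear_Het and 0.538 CPM in Nuclear_WT, and 1.25 CPM in Total_Hom, 0.624 CPM in Total_Het and 345.5 CPM in Total_WT. Comparisons with WT, and those of nuclear with total RNA, therefore set libraries of high Xist against libraries of low Xist, and there genotype or fraction cannot be told apart from Xist status. Hom and Het had the same Xist status within each fraction.

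Fatty acids enter cells through transporters such as Cd36, are activated to acyl-CoA and cross the mitochondrial membranes as carnitine esters. Mitochondrial beta-oxidation then shortens them step by step and hands electrons to the respiratory chain through the electron transfer flavoprotein, while very long chains are first shortened in peroxisomes. Ketone bodies are made from the resulting acetyl-CoA in liver and, to a lesser degree, in kidney, and are burned elsewhere. The nuclear receptor PPAR alpha (Ppara) turns on many genes of these steps by binding a direct repeat of AGGTCA. The proximal tubule depends on fatty acid oxidation for most of its energy.

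Promoter sequence is shown for 4 members or member pairs whose values the text returns to. RefSeq windows (GRCm38.p6) matched 32 of the 36 members, giving 35 windows, and the 250 bases before each start were searched on both strands. The full repeat, AGGTCA followed by any base and a second AGGTCA, was in 0 of the 35 windows and in 0.0335% of all 32851 windows. Its shortened form, AGGTCA followed by any base and AGG, was in 1 window, that of Slc27a2, and in 0.56% of all windows. The single hexamer AGGTCA, which the longer forms contain, was in 8 windows (22.9%, against 14.0% of all windows). GGGCGG, the GC box, was in 19 (54.3%, against 32.7%) and CCAAT in 18 (51.4%, against 33.8%). A match describes letters in a window and is not a binding site, and the windows without a match say nothing about the receptor.
In Slc27a2 (chr2:126552774-126553023, plus strand) capitals mark the shortened repeat on the opposite strand, in Cd36 (chr5:17835897-17836146, minus strand) and Acadm (chr3:153944644-153944893, minus strand) the hexamer on the opposite strand, and between the starts of Hadha and Hadhb (chr5:30154981-30155252, plus strand) the GC boxes.
Slc27a2: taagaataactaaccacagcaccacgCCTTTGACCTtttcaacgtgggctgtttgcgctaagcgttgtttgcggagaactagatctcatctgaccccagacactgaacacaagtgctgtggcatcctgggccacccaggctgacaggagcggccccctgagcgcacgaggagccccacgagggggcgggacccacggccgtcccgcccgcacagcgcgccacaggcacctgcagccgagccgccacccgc
Cd36: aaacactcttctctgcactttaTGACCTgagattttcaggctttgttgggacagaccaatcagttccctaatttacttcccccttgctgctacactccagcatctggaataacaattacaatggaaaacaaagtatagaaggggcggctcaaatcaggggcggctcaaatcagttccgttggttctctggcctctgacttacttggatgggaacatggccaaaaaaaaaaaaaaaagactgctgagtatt
Acadm: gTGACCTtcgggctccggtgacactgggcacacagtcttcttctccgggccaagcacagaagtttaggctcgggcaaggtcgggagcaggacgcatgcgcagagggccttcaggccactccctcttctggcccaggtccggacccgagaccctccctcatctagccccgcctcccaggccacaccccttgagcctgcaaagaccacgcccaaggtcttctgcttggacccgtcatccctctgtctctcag
Hadha and Hadhb: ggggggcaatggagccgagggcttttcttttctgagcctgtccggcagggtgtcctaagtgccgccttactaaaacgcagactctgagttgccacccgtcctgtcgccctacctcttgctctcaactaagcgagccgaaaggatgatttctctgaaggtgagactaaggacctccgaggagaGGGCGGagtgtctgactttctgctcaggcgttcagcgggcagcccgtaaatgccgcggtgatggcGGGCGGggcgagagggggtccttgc
Hadha and Hadhb encode the alpha and beta subunits of the mitochondrial trifunctional protein and are transcribed away from each other, so these 272 bases lie upstream of both.

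All 36 members were detected in every library and passed the low-count filter in each fit. Per kilobase of gene length, the most abundant over the 18 libraries were Slc27a2 (1218 CPM per kb), Acadm (646) and Etfb (488.5), and the least abundant were Pdk4 (16.4), Ppargc1a (15.5) and Acot3 (12.2). Together the members summed to 12767 ± 49.5 CPM (SD, n = 3) in Nuclear_Hom, 10350.0 ± 31.1 in Nuclear_Het and 14123 ± 50.1 in Nuclear_WT. In total RNA they summed to 9652 ± 16.0 CPM in Total_Hom, 15012 ± 16.7 in Total_Het and 11957 ± 33.7 in Total_WT. The 3 libraries of a group lay far closer to each other than the groups did. Total_Hom was the group with the lowest mean for 16 of the 36 members. The group with the highest mean was Nuclear_Hom for 11, Nuclear_WT for 11 and Total_Het for 10. The highest group mean exceeded the lowest by 1.16-fold (Ppargc1a) to 11.7-fold (Cd36), with a median of 1.73-fold and over 2-fold in 12 members.

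**Figure D1:**
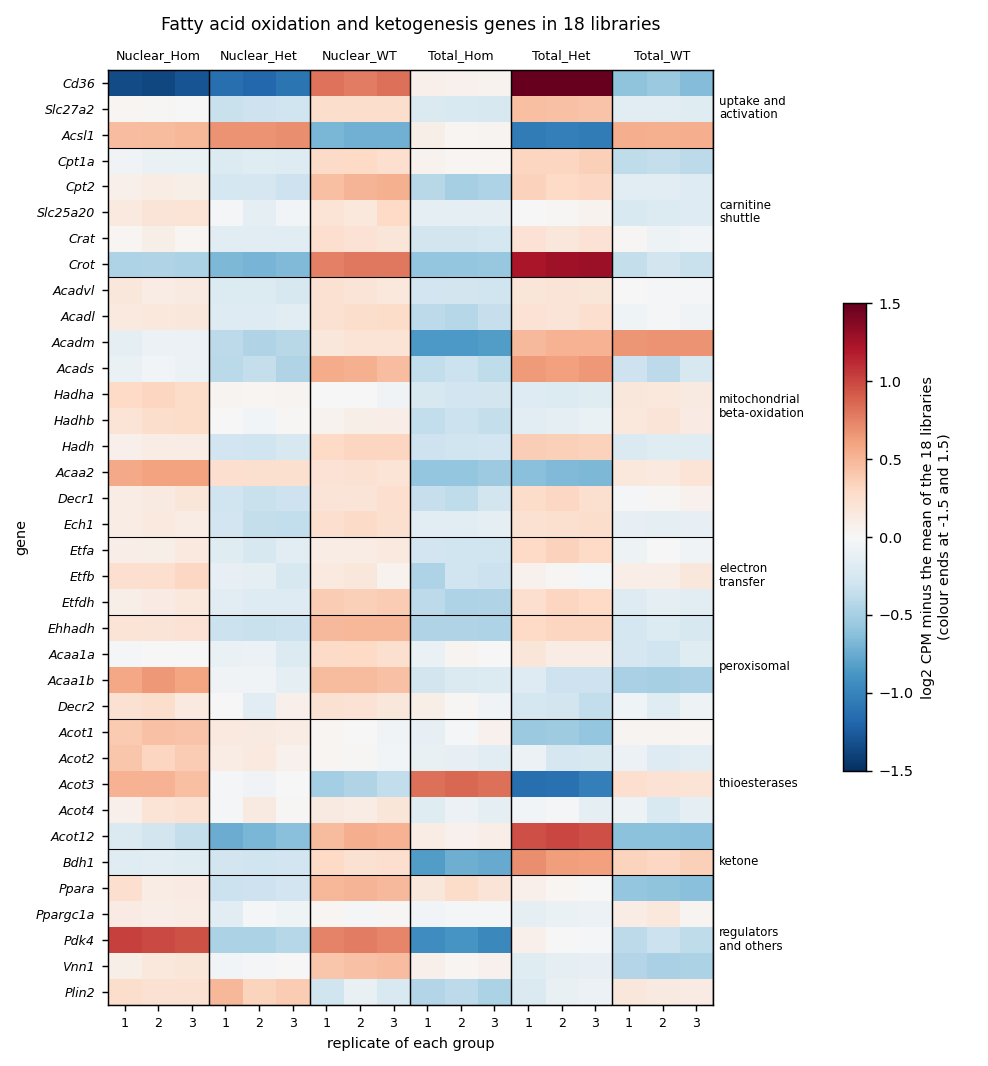
Level of the 36 members in the 18 libraries, as log2 CPM minus the gene's mean over all libraries (colour; red above, blue below the mean), with genes in rows by role and libraries in columns by group. The 3 columns of a group look alike; Total_Het and Nuclear_WT are red for most carnitine shuttle and mitochondrial genes, and Total_Hom is blue for most of them.

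Markers of the proximal tubule differed between Hom and Het in the same directions as most members. The 20 markers summed to 27584 ± 133 CPM in Nuclear_Hom, 21329 ± 226 in Nuclear_Het and 48826 ± 460 in Nuclear_WT. In total RNA they summed to 22112 ± 170 CPM in Total_Hom, 58572 ± 478 in Total_Het and 26115 ± 120 in Total_WT. Within each fraction the 3 genotypes thus had the same order for these markers as for the members, and so they did in the 19 markers without Kap. These summed to 25636 ± 228 CPM in Nuclear_Hom, 19719 ± 221 in Nuclear_Het and 34296 ± 124 in Nuclear_WT, and to 20285 ± 113 in Total_Hom, 35596 ± 59.0 in Total_Het and 20714 ± 126 in Total_WT. Gene by gene, 10 of the 20 were higher and 10 lower in Total_Hom than in Total_WT (median log2 0.05), against a members' median of -0.17. The 15 podocyte markers summed to 1170.4 CPM in Total_Hom, 843 in Total_Het and 1474 in Total_WT. In nuclear RNA they summed to 1132 CPM in Nuclear_Hom, 1222 in Nuclear_Het and 1079 in Nuclear_WT. None of the 35 markers was at 0 in any group. Set against Het, Hom had 2 of the podocyte genes higher and 9 lower in nuclear RNA (median -0.27), and 12 higher and 0 lower in total RNA (median 0.64). The 19 immune cell markers summed to 791 CPM in Nuclear_Hom and 2299.5 in Nuclear_Het, and to 1494 in Total_Hom and 1515.5 in Total_Het. The 15 endothelial markers summed to 1268.5 CPM in Nuclear_Hom and 1190.0 in Nuclear_Het, and to 2077 in Total_Hom and 1347 in Total_Het, where 14 were higher in Hom (median 0.70). The 13 markers of the last proximal tubule segment summed to 3689.8 CPM in Nuclear_Hom and 2881 in Nuclear_Het, with 9 higher and 3 lower in Hom (median 0.36). In total RNA they summed to 1942 in Total_Hom and 8235 in Total_Het, with 2 higher and 11 lower in Hom (median -1.36). Their log2 changes ran from -4.54 to 0.76 in nuclear and from -3.93 to 2.34 in total RNA, so the sums do not stand for every marker. The 9 markers of the earlier proximal tubule segments summed to 3835 CPM in Nuclear_Hom and 2956.5 in Nuclear_Het. In total RNA they summed to 2574 in Total_Hom and 3711 in Total_Het, with 3 higher and 6 lower in Hom (median -0.22). The 15 distal nephron markers summed to 11262 CPM in Nuclear_Hom and 11292 in Nuclear_Het. In total RNA they summed to 11217 in Total_Hom and 10096 in Total_Het, with 11 higher and 3 lower in Hom (median 0.26). The 8 adipocyte markers, with Fabp4 the most abundant, lay between 181 CPM (Nuclear_WT) and 457 CPM (Total_Hom). In such bulk samples fewer tubule cells and less of these RNAs per cell cannot be told apart, and the part of cell composition in the members' differences was not tested.

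**Figure D2:**
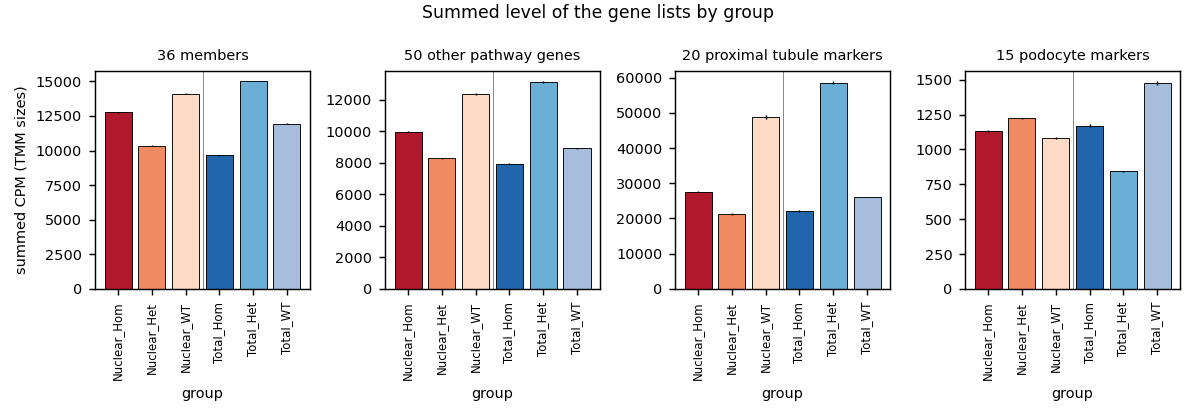
Summed CPM of the 36 members, 50 other genes of the pathway, 20 proximal tubule markers and 15 podocyte markers in each group (bars, mean of 3 libraries; error bars, SD). The members range from 9652 CPM in Total_Hom to 15012 CPM in Total_Het, and the tubule markers from 21329 CPM in Nuclear_Het to 58572 CPM in Total_Het.

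The genotype comparison that keeps Xist status equal within a fraction, Hom against Het, gave opposite results in nuclear and total RNA. Its nuclear libraries were high in Xist and its total libraries low, so fraction cannot be told apart from Xist status here. Total_Hom and Total_Het also differed in Kap, whose values are given below. A gene was counted as higher or lower when edgeR's quasi-likelihood test gave a Benjamini-Hochberg adjusted p under 0.05 over all genes tested. In nuclear RNA 33 members were higher and 3 lower in Hom than in Het, where 21.4% of the 15112 genes tested were higher, 21.8% lower and 43.2% called in either direction. The members' median log2 change was 0.31, against 0.00 for all genes. The largest rise was that of Pdk4 (log2 1.45 ± 0.04), and the 3 members that fell were Cd36, Acsl1 and Plin2 (log2 -0.20, -0.20 and -0.17). In total RNA 8 members were higher and 25 lower in Hom than in Het, where 32.9% of the 15051 genes tested were higher, 34.1% lower and 67% called in either direction. The members' median was -0.38, against 0.01 for all genes. With library totals alone the members' median was -0.23, against 0.16 for all genes. By at least 2-fold 2 members were higher and 4 lower (5.22% and 3.81% of all genes). The largest falls were those of Cd36 (log2 -2.14 ± 0.02), Crot (log2 -1.83 ± 0.02) and Bdh1 (log2 -1.42 ± 0.02), and the largest rises those of Acot3 (log2 1.94 ± 0.05) and Acsl1 (log2 1.10 ± 0.02). Of the members, 23 were higher in nuclear RNA and lower in total RNA, 7 were higher in both and Acsl1 was lower in nuclear and higher in total RNA. The share of all genes with each of these crossed patterns was not counted, so these counts have no background beside them. Of the proximal tubule markers, 19 of 20 were higher and 1 lower in nuclear RNA (median 0.38), and 3 were higher and 16 lower in total RNA (median -0.77).

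**Figure D3:**
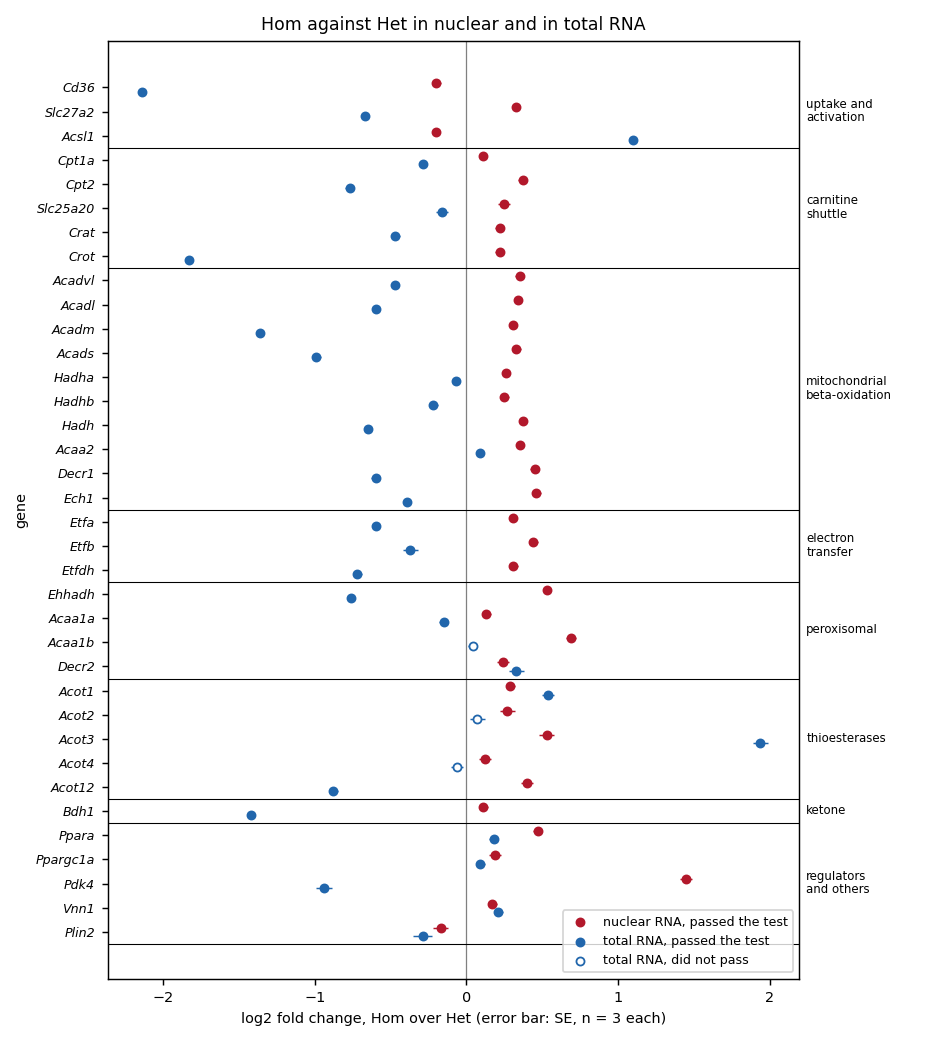
Log2 fold change of Hom over Het for each member in nuclear RNA (red) and total RNA (blue), with SE bars (n = 3 libraries each); filled points passed edgeR's test and open points did not. Red points lie right of zero except for Cd36, Acsl1 and Plin2, and most blue points lie left of it.

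Set against WT, the members split within each genotype. In nuclear RNA 12 were higher and 19 lower in Hom (26.5% and 27.8% of all genes, 54.3% either way; median log2 -0.08), and 5 were higher and 29 lower in Het (32.8% and 31.7%, 64.6% either way; median -0.45). The Hom and Het comparisons share the WT libraries. In total RNA 9 were higher and 21 lower in Hom (30.6% and 31%, 61.6% either way; median -0.17), and 23 were higher and 10 lower in Het (30.9% and 30.3%, 61.1% either way; median 0.26). With library totals alone in place of TMM factors, the split in nuclear RNA was 16 higher and 15 lower in Hom and 9 higher and 25 lower in Het, a scaling that put the median log2 change of all genes at 0.14 for Hom and 0.20 for Het, against 0.02 for each under TMM. Of the nuclear calls over all genes, 73.9% were then higher in Hom and 75.9% in Het. The members' medians were then 0.04 for Hom and -0.27 for Het in nuclear RNA, and -0.20 for Hom and 0.08 for Het in total RNA. In total RNA the medians of all genes were -0.03 for Hom and -0.19 for Het.

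Nuclear RNA was also set against total RNA within a genotype. In Hom 30 members were higher and 4 lower in nuclear RNA (30.5% and 29.8% of 15410 genes, 60.3% either way; median log2 0.42). In Het 12 were higher and 23 lower (33.4% and 30.2%, 63.6% either way; median -0.38), and in WT 26 were higher and 8 lower (30.9% and 30.8%, 61.7% either way; median 0.31), or 21 and 11 with library totals alone. That scaling gave members' medians of 0.40 in Hom, -0.18 in Het and 0.15 in WT, against -0.01, 0.24 and -0.17 for all genes. In WT, 25.4% of the calls over all genes were then higher in nuclear RNA. The nuclear-to-total ratio was then compared between genotypes as an interaction term. Between Hom and WT it was higher for 17 members and lower for 14 (28.4% and 27.7%, 56.1% either way; median 0.04), or 20 and 8 with library totals alone (median 0.19). With library totals alone, 70.4% of the calls over all genes were higher too, and the median of all genes was 0.17. With the deposited column of Total_WT replicate 1, 9 members were lower and their median was 0.16, against 0.02 for all genes. By at least 2-fold it was higher for 4 and lower for 3 (7.89% and 4.45%). Between Hom and Het it was higher in Hom for 30 members and lower for Acsl1, Acot1 and Acot3 (31.7% and 31.9%, 63.6% either way; median 0.75). By at least 2-fold it was higher for 13 members and lower for 2, where 5.52% and 10.9% of all genes were. For 18 members nuclear RNA exceeded total RNA in Hom and fell short of it in Het, a crossed pattern whose share among all genes was not counted. Proximal tubule markers had a higher ratio in Hom than in Het in 18 of 20 and a lower one in 2 (median 1.06). The nuclear and total libraries of a genotype differ in Xist status, so they cannot be read as fractions of the same animals.

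**Figure D4:**
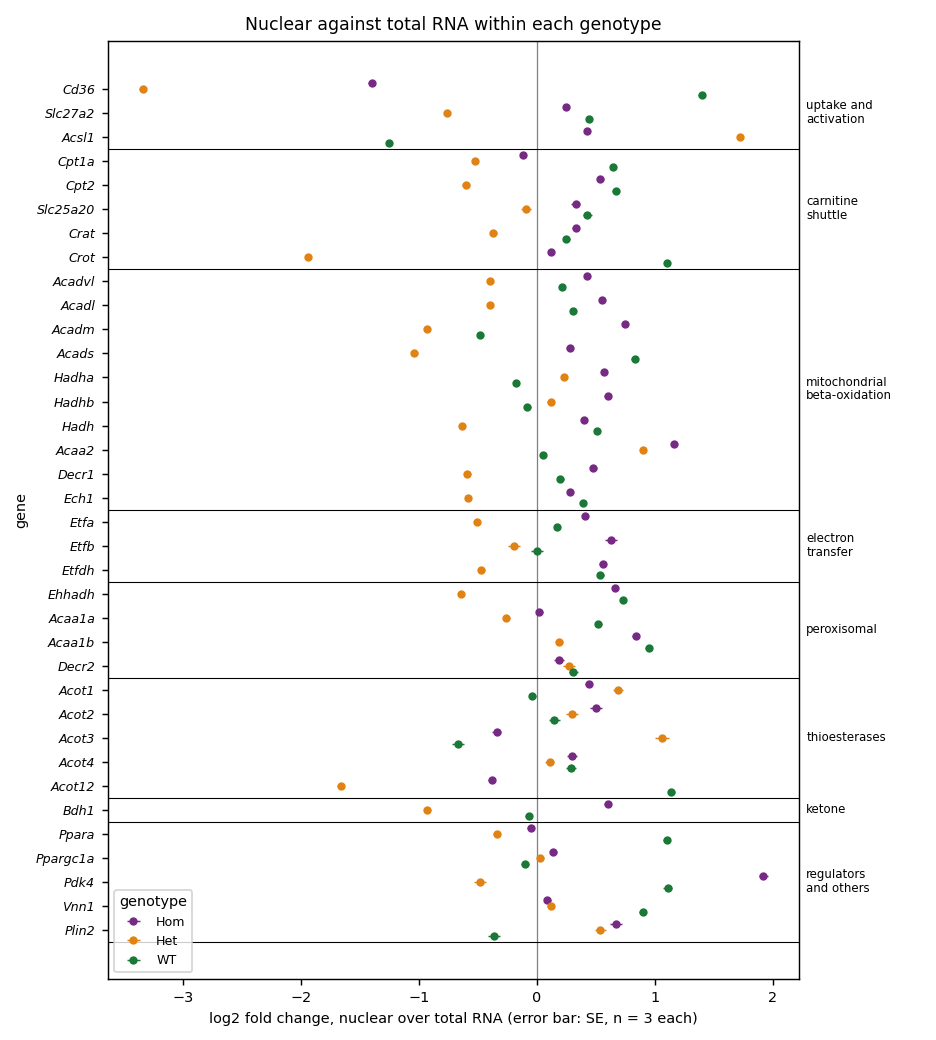
Log2 fold change of nuclear over total RNA for each member in Hom (purple), Het (orange) and WT (green), with SE bars (n = 3 libraries each). Orange points lie left of purple points for most members, most widely for Pdk4, Crot and Cd36; Acsl1 and Acot3 show the reverse.

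Among the genes of uptake and activation, Cd36, the fatty acid translocase of the plasma membrane, had the widest range of all members. It stood at 79.2, 78.0 and 81.9 CPM in Nuclear_Hom, 91.5, 88.7 and 94.4 CPM in Nuclear_Het, and 353, 342.5 and 356 CPM in Nuclear_WT. In total RNA, Cd36 was at 211, 210.4 and 208 CPM in Total_Hom, 917, 935 and 933 CPM in Total_Het, and 132, 136 and 128.5 CPM in Total_WT. No groups overlapped within a fraction: Total_Het was the highest of the 6, and Nuclear_Hom and Nuclear_Het were the lowest. Cd36 was lower in Hom than in Het in total RNA (log2 -2.14 ± 0.02, edgeR adjusted p = 3.37e-126) and in nuclear RNA (log2 -0.20 ± 0.03, edgeR adjusted p = 3.12e-07), by edgeR's quasi-likelihood test with Benjamini-Hochberg adjustment as for all adjusted p below. Slc27a2, a very long chain acyl-CoA synthetase and transporter of the proximal tubule, was at 2803, 2780.5 and 2767 CPM in Nuclear_Hom, 2187, 2210.1 and 2231 CPM in Nuclear_Het, and 3295, 3309 and 3302 CPM in Nuclear_WT. In total RNA, Slc27a2 was at 2364, 2343 and 2325 CPM in Total_Hom, 3750.0, 3733 and 3714.5 CPM in Total_Het, and 2443, 2444 and 2430.0 CPM in Total_WT. WT led in nuclear RNA and Het in total RNA, again without overlap, and Hom against Het gave log2 0.33 ± 0.02 in nuclear and log2 -0.67 ± 0.01 in total RNA. Acsl1, the long-chain acyl-CoA synthetase, was at 728, 734 and 741 CPM in Nuclear_Hom, 839.8, 839 and 850.2 CPM in Nuclear_Het, and 327, 319 and 319.8 CPM in Nuclear_WT. In total RNA, Acsl1 was at 561, 536 and 543.5 CPM in Total_Hom, 255, 258 and 254 CPM in Total_Het, and 768, 761 and 765 CPM in Total_WT. Total_Het and Nuclear_WT were its lowest groups, and it was higher in Total_Hom than in Total_Het (log2 1.10 ± 0.02, edgeR adjusted p = 3.36e-93).

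All 5 genes of the carnitine shuttle were higher in Hom than in Het in nuclear RNA and lower in total RNA. Cpt1a, the regulated entry step on the outer mitochondrial membrane, was at 439, 427 and 428 CPM in Nuclear_Hom, 397, 403 and 399 CPM in Nuclear_Het, and 557, 564 and 542 CPM in Nuclear_WT. In total RNA, Cpt1a was at 474, 468 and 468 CPM in Total_Hom, 569, 571 and 586 CPM in Total_Het, and 351, 358 and 348.5 CPM in Total_WT. The groups did not overlap within a fraction, yet its nuclear difference between Hom and Het was small (log2 0.11 ± 0.02) and did not pass with library totals alone (0.05). Cpt2, which releases the acyl group inside the mitochondrion, was at 136, 138.5 and 136.5 CPM in Nuclear_Hom, 107, 108 and 103.5 CPM in Nuclear_Het, and 176, 183 and 186 CPM in Nuclear_WT. In total RNA, Cpt2 was at 96.7, 91.3 and 93.7 CPM in Total_Hom, 163, 159 and 160.1 CPM in Total_Het, and 114, 115 and 113 CPM in Total_WT, and Hom was the lowest group there (log2 -0.77 ± 0.03 against Het). Crot, the peroxisomal carnitine octanoyltransferase, was at 196, 198.5 and 195.5 CPM in Nuclear_Hom, 170.3, 166 and 170.4 CPM in Nuclear_Het, and 459, 467 and 468 CPM in Nuclear_WT. In total RNA, Crot was at 181, 181 and 183 CPM in Total_Hom, 634, 654 and 658 CPM in Total_Het, and 211, 224 and 215 CPM in Total_WT. Nuclear_WT and Total_Het stood apart from the other 4 groups, which lay between 166 and 224 CPM in every library. Its nuclear-to-total ratio was higher in Hom than in Het by 2.06 ± 0.04 on the log2 scale (edgeR adjusted p = 1.52e-98). Crat and Slc25a20, the carnitine acetyltransferase and the carnitine-acylcarnitine carrier, moved less, with Hom against Het at 0.22 and 0.25 in nuclear RNA and -0.47 and -0.16 in total RNA. The call of Slc25a20 in total RNA was lost with library totals alone (-0.01).

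All 10 enzymes of mitochondrial beta-oxidation were higher in Hom than in Het in nuclear RNA, within a narrow range of log2 0.25 (Hadhb) to 0.46 (Ech1). In total RNA 9 were lower in Hom, from -0.07 (Hadha) to -1.36 (Acadm), and Acaa2 was higher (0.09). Hadha turned to 0.08 with library totals alone. Acadm, the medium-chain acyl-CoA dehydrogenase, was at 1131, 1176 and 1178 CPM in Nuclear_Hom, 956, 917 and 939.6 CPM in Nuclear_Het, and 1405, 1443 and 1436 CPM in Nuclear_WT. In total RNA, Acadm was at 688, 687 and 702 CPM in Total_Hom, 1749.9, 1799 and 1792 CPM in Total_Het, and 1979, 1997 and 1996 CPM in Total_WT. No groups overlapped within a fraction, and Total_Hom was the lowest of all 6, also against WT (log2 -1.52 ± 0.01, edgeR adjusted p = 3.63e-129). Acads, the short-chain dehydrogenase, was at 169, 175 and 169.7 CPM in Nuclear_Hom, 136, 141 and 132 CPM in Nuclear_Het, and 266, 261 and 249 CPM in Nuclear_WT. In total RNA, Acads was at 139, 144 and 139 CPM in Total_Hom, 282, 277 and 283 CPM in Total_Het, and 146, 137 and 153 CPM in Total_WT, where Hom and WT overlapped and Het lay above both (log2 -0.99 ± 0.03 for Hom against Het). Acadl, the long-chain dehydrogenase, was at 385, 387 and 389.9 CPM in Nuclear_Hom, 305, 304 and 309 CPM in Nuclear_Het, and 406, 418 and 422 CPM in Nuclear_WT. In total RNA, Acadl was at 264, 258 and 274 CPM in Total_Hom, 403, 396 and 413 CPM in Total_Het, and 332, 341 and 334 CPM in Total_WT, with Het highest and Hom lowest (log2 -0.60 ± 0.02). Acadvl, for very long chains, had log2 0.35 ± 0.03 in nuclear and log2 -0.47 ± 0.02 in total RNA for the same comparison, though 42.9% of its exon bases overlap Dvl2 on the opposite strand, and the strand setting of the counting is not given in the sources used here.
Hadh, the hydroxyacyl-CoA dehydrogenase of shorter chains, was at 486, 498 and 496 CPM in Nuclear_Hom, 377, 375 and 389 CPM in Nuclear_Het, and 564.5, 575 and 575 CPM in Nuclear_WT. In total RNA, Hadh was at 370.4, 374 and 377 CPM in Total_Hom, 593, 588 and 585 CPM in Total_Het, and 395, 407 and 405 CPM in Total_WT. WT led in nuclear and Het in total RNA, and the Hom libraries lay below those of Het in total RNA (log2 -0.65 ± 0.02). Acaa2, the mitochondrial thiolase that closes the cycle, was at 599, 610.4 and 612.5 CPM in Nuclear_Hom, 481, 478 and 474 CPM in Nuclear_Het, and 468, 472 and 465 CPM in Nuclear_WT. In total RNA, Acaa2 was at 270.1, 269 and 275 CPM in Total_Hom, 260.4, 254 and 253 CPM in Total_Het, and 450.0, 445 and 464 CPM in Total_WT. Nuclear_Hom was the highest group and the 2 mutant groups were lowest in total RNA, so that nuclear exceeded total RNA in Hom (log2 1.16 ± 0.02) and in Het (log2 0.90 ± 0.02). Decr1, the mitochondrial dienoyl-CoA reductase for unsaturated chains, was at 181, 184 and 191 CPM in Nuclear_Hom, 136, 134 and 136 CPM in Nuclear_Het, and 192, 192 and 200.1 CPM in Nuclear_WT. In total RNA, Decr1 was at 132, 129 and 139 CPM in Total_Hom, 203, 208 and 198 CPM in Total_Het, and 164, 169 and 176 CPM in Total_WT. Hom and Het were separate in both fractions (log2 0.45 ± 0.03 in nuclear and log2 -0.60 ± 0.03 in total RNA), while Hom and WT lay side by side in nuclear RNA, where the call (-0.07) was lost without Nuclear_Hom replicate 1 (-0.05) or 2 (-0.06) or Nuclear_WT replicate 3 (-0.05). Ech1, the dienoyl-CoA isomerase, had log2 0.46 ± 0.03 in nuclear and log2 -0.39 ± 0.02 in total RNA for Hom against Het.
Hadha and Hadhb, which share the region printed above, had the same call in 10 of the 11 comparisons. Their log2 changes were 0.26 and 0.25 for Hom against Het in nuclear RNA, -0.41 and -0.50 for Hom against WT in total RNA, and 0.57 and 0.60 for nuclear against total RNA in Hom. The exception was nuclear Het against WT (0.06 and -0.08), where both calls were lost without Nuclear_WT replicate 3 (0.06 and -0.07). Such likeness was not particular to this pair. Slc27a2, Cpt2, Crot, Hadh and Ehhadh, which lie on different chromosomes, had identical calls in all 11 comparisons. The part of the shared region was not tested.

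**Figure D5:**
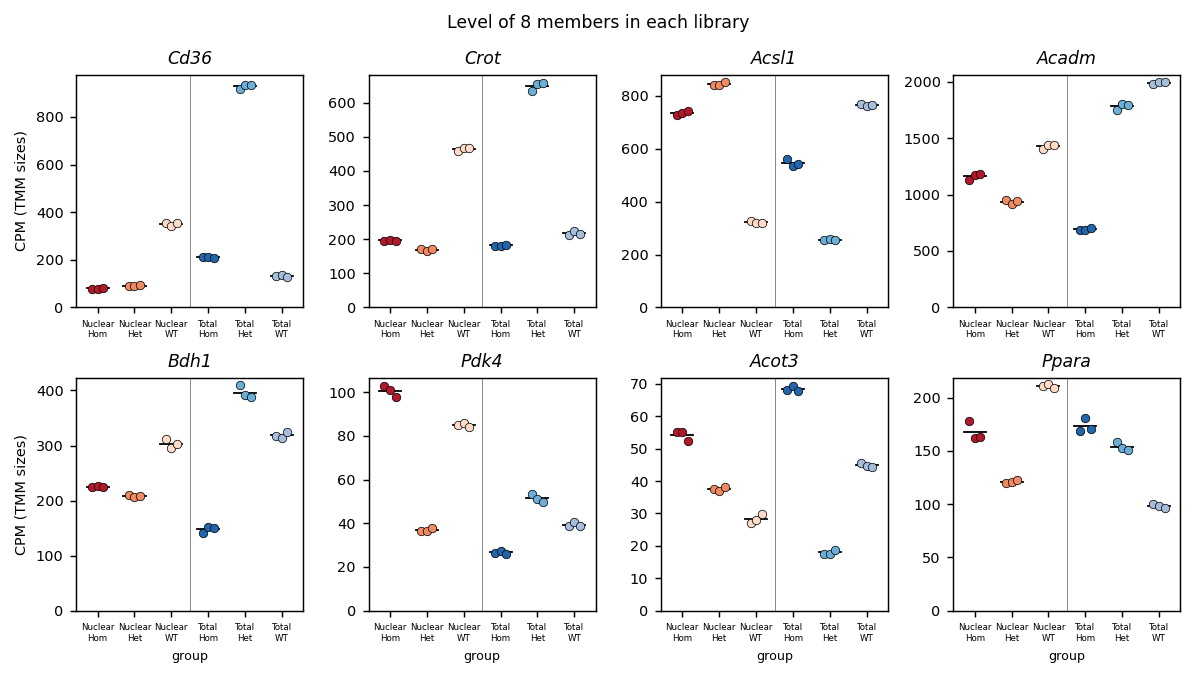
CPM of 8 members in each library (points) with the group mean (line); axes start at zero and differ between genes. Cd36 and Crot stand high in Total_Het and Nuclear_WT, Acsl1 and Acot3 low in Total_Het, and Pdk4 high in Nuclear_Hom and Nuclear_WT.

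Etfa, Etfb and Etfdh encode the subunits of the electron transfer flavoprotein and its ubiquinone oxidoreductase, and all 3 were higher in nuclear and lower in total RNA of Hom than of Het. Etfa was at 459.6, 459 and 475 CPM in Nuclear_Hom, 378, 364 and 383 CPM in Nuclear_Het, and 464, 464 and 475 CPM in Nuclear_WT. In total RNA, Etfa was at 352, 349.5 and 349.8 CPM in Total_Hom, 528, 547 and 528.5 CPM in Total_Het, and 408, 427 and 415 CPM in Total_WT. Hom and WT overlapped in nuclear RNA, with Het below both, and in total RNA Het was highest and Hom lowest (log2 -0.60 ± 0.02). Etfdh was at 192, 197 and 201 CPM in Nuclear_Hom, 162, 157 and 158 CPM in Nuclear_Het, and 236, 232 and 235 CPM in Nuclear_WT. In total RNA, Etfdh was at 137, 131 and 131 CPM in Total_Hom, 214, 225 and 221 CPM in Total_Het, and 157.5, 163 and 161 CPM in Total_WT, again with Het highest and Hom lowest (log2 -0.72 ± 0.03). Etfb had log2 0.44 ± 0.03 in nuclear and log2 -0.37 ± 0.05 in total RNA, but 58.2% of its exon bases overlap other genes on the same strand in the GENCODE annotation of GRCm38, so its counts are uncertain.

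Ehhadh, the bifunctional enzyme of peroxisomal beta-oxidation and a known PPAR alpha target, was at 719, 713 and 722 CPM in Nuclear_Hom, 499.9, 495.5 and 497.5 CPM in Nuclear_Het, and 874.5, 879.5 and 882 CPM in Nuclear_WT. In total RNA, Ehhadh was at 457, 454.5 and 452 CPM in Total_Hom, 767, 776 and 779 CPM in Total_Het, and 519, 541 and 529 CPM in Total_WT. No groups overlapped within a fraction, Hom exceeded Het in nuclear RNA (log2 0.53 ± 0.02, edgeR adjusted p = 1.62e-37) and lay below it in total RNA (log2 -0.76 ± 0.02). Acaa1b, a peroxisomal thiolase, was at 459.5, 480.5 and 463 CPM in Nuclear_Hom, 295, 296 and 277 CPM in Nuclear_Het, and 426, 426 and 414 CPM in Nuclear_WT. In total RNA, Acaa1b was at 253, 264 and 265.5 CPM in Total_Hom, 269, 247 and 247 CPM in Total_Het, and 219, 216 and 219 CPM in Total_WT. Nuclear_Hom was the highest group (log2 0.69 ± 0.03 over Het), while Total_Hom and Total_Het overlapped (log2 0.04 ± 0.03, edgeR adjusted p = 0.134), a difference that did pass without replicate 1 of Total_Hom (0.07) or of Total_Het (0.09). Acaa1b shares 30.5% of its 50-base stretches with its copy Acaa1a (0.13 in nuclear and -0.15 in total RNA for Hom against Het), so reads of the pair could be exchanged. Decr2, the peroxisomal dienoyl-CoA reductase, was higher in Hom than in Het in both fractions (0.24 and 0.33).

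Acyl-CoA thioesterases split acyl-CoA into free fatty acid and CoA. All 5 were higher in nuclear Hom than in nuclear Het, Acot4 by the least (0.12; lost without Nuclear_Hom replicate 2 or 3, at 0.10 and 0.09, or Nuclear_Het replicate 1, at 0.09). In total RNA Acot1 and Acot3 were higher and Acot12 lower, and Acot2 (0.07) and Acot4 (-0.06) did not pass. Acot3, a peroxisomal member, was at 55.0, 55.1 and 52.5 CPM in Nuclear_Hom, 37.4, 37.0 and 38.1 CPM in Nuclear_Het, and 27.0, 27.9 and 29.7 CPM in Nuclear_WT. In total RNA, Acot3 was at 68.1, 69.3 and 67.9 CPM in Total_Hom, 17.5, 17.6 and 18.8 CPM in Total_Het, and 45.7, 44.5 and 44.2 CPM in Total_WT. Hom was the highest group in both fractions and Total_Het the lowest of all, without overlap (log2 1.94 ± 0.05, edgeR adjusted p = 3.69e-71). Acot1, the cytosolic long-chain thioesterase, was at 134, 138 and 137 CPM in Nuclear_Hom, 113, 111.5 and 109.7 CPM in Nuclear_Het, and 104, 102 and 98.4 CPM in Nuclear_WT. In total RNA, Acot1 was at 93.8, 101 and 106 CPM in Total_Hom, 69.3, 70.3 and 68.3 CPM in Total_Het, and 104.5, 105 and 104 CPM in Total_WT. Hom led in nuclear RNA, Hom and WT overlapped in total RNA, and Het lay below them there (log2 0.54 ± 0.04 for Hom against Het). Acot12, the cytosolic acetyl-CoA hydrolase, was at 102, 97.7 and 92.6 CPM in Nuclear_Hom, 70.8, 74.0 and 77.1 CPM in Nuclear_Het, and 165, 173 and 170.5 CPM in Nuclear_WT. In total RNA, Acot12 was at 128, 124 and 127 CPM in Total_Hom, 232, 237 and 232 CPM in Total_Het, and 77.2, 77.4 and 76.6 CPM in Total_WT. Its order was that of Cd36 in total RNA, Het above Hom above WT, and Nuclear_WT was far above the mutant groups (log2 -0.79 ± 0.04 for Hom). Acot1 to Acot4 all lie on chromosome 12. Acot2 shares 24.5% of its 50-base stretches with Acot1, and 20.6% of the exon bases of Acot3 overlap other genes, which limits how far their counts can be kept apart.

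Bdh1, the mitochondrial hydroxybutyrate dehydrogenase, interconverts the 2 main ketone bodies. It was at 224, 226 and 224 CPM in Nuclear_Hom, 209.5, 206 and 208 CPM in Nuclear_Het, and 311.5, 296 and 302 CPM in Nuclear_WT. In total RNA, Bdh1 was at 142, 152 and 149.5 CPM in Total_Hom, 409.8, 391.5 and 387 CPM in Total_Het, and 318, 313 and 325 CPM in Total_WT. No groups overlapped within a fraction: WT was highest in nuclear RNA, and Total_Hom was the lowest of all 6 groups. Bdh1 was lower in Total_Hom than in Total_Het (log2 -1.42 ± 0.02, edgeR adjusted p = 9.31e-92) and than in Total_WT (log2 -1.10 ± 0.02). In nuclear RNA it differed by 0.11 between Hom and Het, which did not pass with library totals alone (0.06).

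Among the regulators and targets, Ppara, the PPAR alpha receptor itself, was at 178, 162 and 163 CPM in Nuclear_Hom, 119.6, 121 and 123 CPM in Nuclear_Het, and 211, 213 and 209 CPM in Nuclear_WT. In total RNA, Ppara was at 168.5, 180.4 and 170.5 CPM in Total_Hom, 158, 153 and 151 CPM in Total_Het, and 100.4, 98.2 and 96.7 CPM in Total_WT. No groups overlapped within a fraction, WT was highest in nuclear and lowest in total RNA, and Hom exceeded Het in nuclear (log2 0.47 ± 0.03) and in total RNA (log2 0.18 ± 0.03). Ppargc1a, the coactivator PGC-1 alpha, was at 111, 109 and 109.9 CPM in Nuclear_Hom, 91.7, 100.1 and 97.7 CPM in Nuclear_Het, and 104, 99.6 and 103 CPM in Nuclear_WT. In total RNA, Ppargc1a was at 99.3, 101 and 99.8 CPM in Total_Hom, 93.2, 94.9 and 95.7 CPM in Total_Het, and 110.0, 114 and 105 CPM in Total_WT. It had the narrowest range of all members: Nuclear_Het and Nuclear_WT overlapped, and its call between Total_Hom and Total_Het (0.09) was lost without Total_Hom replicate 2 (0.08) or Total_Het replicate 1 (0.08). Pdk4, the kinase that shuts off pyruvate dehydrogenase when fat is burned, was at 103, 101 and 98.0 CPM in Nuclear_Hom, 36.4, 36.4 and 37.7 CPM in Nuclear_Het, and 85.0, 86.1 and 84.2 CPM in Nuclear_WT. In total RNA, Pdk4 was at 26.6, 27.4 and 25.9 CPM in Total_Hom, 53.5, 51.1 and 49.7 CPM in Total_Het, and 38.7, 40.6 and 38.9 CPM in Total_WT. Nuclear_Hom and Nuclear_WT were high, Nuclear_Het was low, and Total_Hom was the lowest group of all. Pdk4 was the only member over 2-fold higher in Nuclear_Hom than in Nuclear_Het (log2 1.45 ± 0.04, edgeR adjusted p = 3.74e-51), where 0.834% of all genes were (no member was lower by as much, against 4.84%), and of all members its nuclear-to-total ratio differed most between Hom and Het (log2 2.40 ± 0.06). Plin2, a coat protein of lipid droplets, was at 41.5, 40.3 and 40.3 CPM in Nuclear_Hom, 48.6, 43.4 and 45.0 CPM in Nuclear_Het, and 28.1, 32.0 and 29.5 CPM in Nuclear_WT. In total RNA, Plin2 was at 25.4, 26.4 and 24.9 CPM in Total_Hom, 29.6, 32.0 and 32.6 CPM in Total_Het, and 38.7, 37.9 and 37.7 CPM in Total_WT. Nuclear_Hom lay between Nuclear_Het and Nuclear_WT without overlap, but the call of Hom against Het (-0.17) was lost without Nuclear_Het replicate 1 (-0.12). Vnn1, a pantetheinase, was higher in Hom than in Het in both fractions (0.17 and 0.21).

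Other genes of the pathway, taken from a list of 50, went the same way in count. In nuclear RNA 40 of the 49 tested were higher and 6 lower in Hom than in Het (median log2 0.27), and in total RNA 12 were higher and 32 lower (median -0.41). Of all genes tested, 21.4% were higher and 21.8% lower in nuclear RNA, and 32.9% and 34.1% in total RNA. Oxct1, which lets tissues use ketone bodies, was at 1401, 1387 and 1402.5 CPM in Nuclear_Hom, 1274, 1272 and 1289.7 CPM in Nuclear_Het, and 1979.6, 1970.0 and 1993 CPM in Nuclear_WT. In total RNA, Oxct1 was at 622, 618 and 614 CPM in Total_Hom, 1885, 1915.5 and 1912 CPM in Total_Het, and 1726, 1748 and 1723 CPM in Total_WT. Total_Hom stood apart from the other 5 groups, which lay well above it (log2 -1.62 ± 0.01 against Total_Het and log2 -1.48 ± 0.01 against Total_WT). Acat1, the mitochondrial acetoacetyl-CoA thiolase, fell in Total_Hom to 581 ± 2.66 CPM, against 1416.5 ± 5.93 CPM in Total_Het (log2 -1.28 ± 0.02). Amacr, a racemase for branched chains, was lower as well in Total_Hom (log2 -1.84 ± 0.03 against Total_Het). Among genes of the list that rose in nuclear RNA of Hom over Het were Acox2, an oxidase of branched chains and bile acid precursors (log2 1.15 ± 0.03), and the enoyl-CoA isomerases Eci3 (log2 0.85 ± 0.03) and Eci1 (log2 0.57 ± 0.03).

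Other known PPAR alpha targets were less uniform. In nuclear RNA 20 of the 28 tested were higher and 2 lower in Hom than in Het (median log2 0.39), and in total RNA 13 were higher and 8 lower (median 0.15). Cyp4a14, an omega-hydroxylase of fatty acids, was at 773.5, 781 and 775 CPM in Nuclear_Hom, 430.4, 427 and 437 CPM in Nuclear_Het, and 21.7, 23.3 and 23.3 CPM in Nuclear_WT. In total RNA, Cyp4a14 was at 279.9, 267 and 272 CPM in Total_Hom, 3.63, 2.95 and 4.18 CPM in Total_Het, and 409, 427 and 409 CPM in Total_WT. Nuclear_WT and Total_Het were the low groups, the same 2 groups in which Cd36 and Crot were highest, and Hom against Het gave log2 6.26 ± 0.04 in total RNA (edgeR adjusted p = 2.29e-128). Its relative Cyp4a10 was higher in Hom than in Het in both fractions (log2 1.07 ± 0.02 in nuclear and log2 2.17 ± 0.02 in total RNA). Nudt19, a peroxisomal hydrolase of CoA, was lower in Total_Hom than in Total_Het (log2 -1.80 ± 0.02). Acsm3, a medium-chain acyl-CoA synthetase, was at 5.74, 5.16 and 6.68 CPM in Nuclear_Hom, 12.6, 11.8 and 11.8 CPM in Nuclear_Het, and 305.5, 310.0 and 309 CPM in Nuclear_WT. In total RNA, Acsm3 was at 4.11, 3.78 and 3.44 CPM in Total_Hom, 695, 699 and 706 CPM in Total_Het, and 2.97, 3.54 and 3.22 CPM in Total_WT. Only Nuclear_WT and Total_Het were above 13 CPM (log2 -7.53 ± 0.04 for Total_Hom against Total_Het). Kap, the androgen-regulated protein of the proximal tubule, chosen here after its values were seen, was also highest in those groups. It averaged 1948 ± 97.4 CPM in Nuclear_Hom, 1609.7 ± 18.7 in Nuclear_Het and 14530.5 ± 565 in Nuclear_WT. In total RNA Kap averaged 1827 ± 56.7 CPM in Total_Hom, 22975 ± 502 in Total_Het and 5400.4 ± 79.8 in Total_WT. Total_Hom thus matched Total_Het in Xist but not in Kap, and the part of whatever sets Kap in the members' differences was not tested.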

How the data were processed

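The authors deposited 1 table of raw counts per gene for 18 libraries (TRIzol RNA, KAPA stranded mRNA kit, per the labels' protocols). The submitters' processing notes name CASAVA, STAR 2.5.2b, featureCounts, DESeq2 and the build mm9; the annotation and strand setting are not given in the sources used here. Of the 24602 genes, 4177 had no count. The column of Total_WT replicate 1 was 10.23 times the mean of the other 17 and was used minus the 9 nuclear columns, a choice made after seeing the data (0 genes came out below 0). Rn45s, a ribosomal RNA gene, took 0.11% to 7.12% of the counts of a library. Groups came from the labels, with 3 libraries each and 17.4 to 23.5 M (mega) counts per library.

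edgeR 4.0.16 in R 4.3.3 (filterByExpr, TMM, robust quasi-likelihood fit, Benjamini-Hochberg adjusted p under 0.05 over all genes) was fitted to the nuclear, the total and all 18 libraries, with biological coefficients of variation of 3.05%, 3.9% and 3.54%. It was tested on simulated counts. In all, 11 comparisons were made. CPM were computed with TMM sizes of the 18 libraries and log2 changes come from the fits. Alternatives were RLE factors, library totals alone, 2 other filters, DESeq2 1.42.0, a replicate block, leaving out each library, other sets of libraries in the fit, the column as deposited and, added after seeing the data, leaving out Rn45s. The members and gene lists were chosen with earlier results of these data known. Values per library are given for members with a called log2 change of at least 0.5 between Hom and Het or of at least 1 in any comparison, and for Cpt1a, Ppara, Ppargc1a and Bdh1; of other lists up to 4 genes a comparison were eligible by smallest p.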

Additional observations from a re-analysis of the deposited data

Results flagged for a closer look

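The nuclear-to-total ratio differed between genotypes by at least 2-fold, tested as an interaction term in edgeR's quasi-likelihood fit, for 22 pairs of a member and a comparison. These are log2 differences of the ratio, the Hom ratio over that of Het or of WT, and the comparisons share the Hom libraries. Against Het, the ratio in Hom was higher for Pdk4 by 2.40, Crot by 2.06, Cd36 by 1.94, Acadm by 1.67, Bdh1 by 1.54, Acads by 1.32, Ehhadh by 1.30 and Acot12 by 1.28. It was also higher for Cpt2 (1.14), Decr1 (1.06), Hadh (1.03), Etfdh (1.03) and Slc27a2 (1.0). It was lower for Acot3 (-1.40) and Acsl1 (-1.30). Against WT, it was higher for Acsl1 (1.67), Acadm (1.23), Acaa2 (1.11) and Plin2 (1.03), and lower for Cd36 (-2.80), Acot12 (-1.51) and Ppara (-1.15). Nuclear and total libraries differ in Xist status in every genotype, in opposite directions in the mutants and in WT. They also differ in the summed tubule markers. Kap differs between the fractions in Het and WT, but its Hom libraries overlap (1837, 1988.5 and 2019 CPM in nuclear, 1886, 1772.5 and 1823 CPM in total RNA). The part of Xist status, Kap and the tubule markers in the ratios was not tested.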

How the results depend on the processing

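No call of a member reversed when a library was left out: of 2808 such results 2743 kept direction and side of the threshold, and the 65 others concerned 30 results with log2 changes of at most 0.2. Leaving out each library gave these ranges of members higher and lower in the comparisons: nuclear Hom over WT 11 to 12 and 18 to 19, nuclear Het over WT 4 to 6 and 26 to 29, nuclear Hom over Het 32 to 33 and 2 to 3, total Hom over WT 8 to 9 and 21 to 22, total Het over WT 23 to 24 and 10 to 11, total Hom over Het 7 to 9 and 25, nuclear over total 29 to 30 and 4 to 5 in Hom, 11 to 12 and 22 to 23 in Het, and 25 to 26 and 6 to 8 in WT. For the ratio they were 17 and 13 to 15 for Hom over WT and 28 to 30 and 3 for Hom over Het. Of 396 member results, all but 8 were unaltered in call with DESeq2, 395 were with RLE factors, 393 without filter, 381 with a mean of at least 5 CPM, 392 without Rn45s and 333 with library totals alone. Libraries of the same replicate number showed little correlation of their deviations from the group mean (-0.13 to 0.23, 3 of 45 above 0.1). If replicates are technical, this cannot tell whether the numbers pair libraries. With the replicate block 395 of the 396 member results were unaltered, and Acaa2 in nuclear over total WT (0.05) was lost. Library totals alone gave 9 members higher in nuclear Het over WT and 8 lower (ratio, Hom over WT) and 5 lower (ratio, Hom over Het). Of the calls over all genes, 75.9%, 70.4% and 29.1% were then higher in these comparisons, in that order. The deposited column of Total_WT replicate 1 gave 4 higher in total Hom over WT, 4 higher in total Hom over Het, 4 lower in nuclear over total WT and 9 lower in the ratio of Hom over WT. With library totals alone these turned: nuclear Hom over WT Acadvl 0.07, Acadl 0.02, Decr1 0.05 and Etfa 0.12; nuclear Het over WT Hadhb 0.09, Acot4 0.08 and Ppargc1a 0.09; total Hom over Het Hadha 0.08 and Acaa1a 0.00; nuclear over total Het Slc25a20 0.11 and Etfb 0.01; nuclear over total WT Acaa2 -0.11 and Acot2 0.00. In the ratio, Cpt2 0.02, Hadh 0.04, Ech1 0.04, Ehhadh 0.07 and Acaa1b 0.03 turned for Hom over WT, and Acot2 -0.01, Acot4 -0.02 and Ppargc1a -0.10 for Hom over Het. With the deposited column Acaa1b -0.04 turned in total Hom over WT, Acadm 0.02, Acaa1b -0.09 and Pdk4 0.00 in total Het over WT, Acaa2 -0.01 and Bdh1 0.04 in nuclear over total WT, and Ehhadh 0.06 and Acaa1b 0.20 in the ratio of Hom over WT. Library totals alone moved the median of all genes, to between -0.23 (ratio, Hom over Het) and 0.24 (nuclear over total Het), and the deposited column holds counts of 9 other libraries; other causes of these turns were not tested. Libraries held 17.4 to 23.5 M (mega) counts and the lowest CPM of a member in any library was 17.5; which calls depth limits was not tested.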
